A study of Mus musculus with 41 samples.

Results

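The blood clotting genes followed here on arrays of mouse lung and liver were the vitamin K-dependent plasma protein *Proz*, tissue factor *F3*, the coagulation factors *F7*, *F10*, *F5* and *F2*, the fibrinogen chains *Fga*, *Fgb* and *Fgg*, and tissue plasminogen activator *Plat*. They were found by gene name in the array annotation, which gave 10 genes of 27962 named and 15 probes of 41174. The 10 genes were chosen on their lung response to particles in these same arrays, so their lung differences between exposed and control mice are given below as a description, with no test. As far as known, the liver comparison and the comparison of control lung with control liver were not used for that choice, and both are tested. The control lungs enter both the lung comparison that chose the genes and the comparison with control liver, so the latter is not fully separate from the choice.

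Female C57BL/6 mice (C57BL/6BomTac in the methods), time-mated but without a pregnancy, breathed 40 mg/m3 of nanoTiO2 (surface-coated nanosized titanium dioxide) for 1 hr a day on 11 consecutive days and were killed 5 days after the last exposure. Control mice breathed filtered air on the same schedule. The array labels give the age only as equivalent to gestation day 4. Lung mRNA was measured in 7 exposed and 6 control mice and liver mRNA in 7 exposed and 8 control mice, 1 array for each mouse and tissue. By mouse number, 6 exposed and 6 control mice gave both tissues, but the data do not settle that a shared number is the same animal. Each array held the RNA of 1 mouse in Cy5 and a reference RNA from 11 mouse cell lines in Cy3, without dye swap, and each value below is a log2 ratio of tissue over reference. A probe's ratio can be compared between mice, but not with that of another probe, and between tissues with the limit on the reference channel given below. In whole tissue, more cells of a type and more RNA per cell cannot be told apart.

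Clotting starts when tissue factor, a membrane protein outside the vessel, meets factor VII. The complex activates factor X, which with factor V turns prothrombin (*F2*) into thrombin, and thrombin cuts fibrinogen, assembled from the alpha, beta and gamma chains, into fibrin. Protein Z is the cofactor of an inhibitor of activated factor X, and tissue plasminogen activator starts the removal of fibrin by activating plasminogen. Hepatocytes make most of the circulating factors and fibrinogen, while tissue factor and tissue plasminogen activator are made mainly outside the liver. Fibrinogen is also an acute phase protein.

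*Proz* had 3 probes, and they did not give the same result in lung, so the first 30 bases of each 60-base probe are shown. All lie on the plus strand of chromosome 8 in the mm7 assembly used by the lung annotation. The 2 probes designed to the *Proz* mRNA lie at chr8:13046697-13046756 and chr8:13048098-13048157. The third, designed to the liver cDNA AK005011, which the annotation describes as weakly similar to the human protein Z precursor, lies downstream at chr8:13050103-13050162, 1945 bases past the end of the nearer of the other two. It was the brightest and is the one meant by *Proz* below unless another is named.
mRNA probe A_52_P203398: tcagattaacaaattcggaaggagaagact
mRNA probe A_52_P356068: tcctcaccgcagtcccgagatactccatgt
downstream probe A_51_P170959: acagcacacagacacatactgtggacacag

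The fibrinogen chain genes lie side by side on chromosome 3 (GRCm38.p6), *Fgg* at chr3:83007724-83015056, *Fga* at chr3:83026153-83033627 and *Fgb* at chr3:83042246-83049863. *Fgb* and *Fgg* moved together from mouse to mouse in lung (below), while *Fga* was near background there. The 250 bases before the start of each chain's gene are shown, from RefSeq, in the direction of the gene. They lie at chr3:83025903-83026152 (plus strand) for *Fga*, chr3:83049864-83050113 (minus strand) for *Fgb* and chr3:83007474-83007723 (plus strand) for *Fgg*. Capitals mark matches, on either strand, to an HNF1 core (GTTAAT), a C/EBP site (TTGCNNAA), an IL-6 response element (CTGGGAA) or an AP-1 site (TGANTCA). HNF1 and C/EBP are transcription factors of hepatocytes, IL-6 drives the acute phase response and AP-1 answers growth and stress signals.
Fga promoter: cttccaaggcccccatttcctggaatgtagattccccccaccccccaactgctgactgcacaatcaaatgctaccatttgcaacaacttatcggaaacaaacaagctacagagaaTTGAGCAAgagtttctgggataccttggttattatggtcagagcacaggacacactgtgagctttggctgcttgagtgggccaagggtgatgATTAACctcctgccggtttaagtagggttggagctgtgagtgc
Fgb promoter: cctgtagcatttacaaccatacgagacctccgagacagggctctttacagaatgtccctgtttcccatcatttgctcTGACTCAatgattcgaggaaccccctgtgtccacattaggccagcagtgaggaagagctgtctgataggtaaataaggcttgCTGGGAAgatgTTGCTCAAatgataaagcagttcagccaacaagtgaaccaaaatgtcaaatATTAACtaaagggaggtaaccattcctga
Fgg promoter: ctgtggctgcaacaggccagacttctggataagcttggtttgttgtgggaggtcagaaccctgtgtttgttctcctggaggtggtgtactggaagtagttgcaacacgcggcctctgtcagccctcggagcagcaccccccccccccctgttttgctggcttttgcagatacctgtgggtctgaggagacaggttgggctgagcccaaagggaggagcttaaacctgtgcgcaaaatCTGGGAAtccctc

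*Fga* and *Fgb* held an HNF1 match 43 and 29 bases before the start and a C/EBP match 135 and 80 bases before it. *Fgb* and *Fgg* held the IL-6 element 91 and 13 bases before the start, and *Fgb* an AP-1 match 173 bases before it. Of the 10 genes, 9 had a promoter entry, and *Plat* had none. Among all 9, HNF1 letters were found in *Fga*, *Fgb* and *Proz* (6.43% of all 32851 promoters), C/EBP letters in *Fga* and *Fgb* (9.56%), IL-6 element letters in *Fgb* and *Fgg* (9.1%) and AP-1 letters in *F2*, *F3* and *Fgb* (6.75%). The F3 window held 2 of the AP-1 matches, 146 and 135 bases before the start. A match describes letters in the window and is not a measured site.

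Across all samples, 55.1% to 70.5% of probes stood well above background in Cy5 on each array. The tissue labels were checked on markers. In control lung, the mean over 10 lung epithelial genes was 4.41 ± 0.11 (SD, n = 6) against 0.20 ± 0.11 (SD, n = 8) in control liver, and the mean over 19 hepatocyte genes was 0.88 ± 0.19 against 6.74 ± 0.14. Exposed mice sat at the first 2 array positions of each slide and controls at the others, and the effect of position cannot be told apart from that of exposure. Lung and liver were hybridised and scanned separately with different versions of the scanner software, so that tissue and session cannot be told apart either.

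In the lungs and livers of control mice the members fell into 2 sets. *Proz*, *F2*, *F5*, *F7*, *F10* and the fibrinogen chains were lower in lung than in liver, and *F3* and *Plat* were higher in lung. All 10 passed the test, 8 lower and 2 higher (limma, Benjamini-Hochberg adjusted p under 0.05 over all 41172 probes), where 58.1% of all probes passed, 28.6% lower and 29.5% higher. The difference furthest from 0 was that of *Fgg*, the fibrinogen gamma chain, which stood at 0.80 ± 0.40 in 6 control lungs and 8.74 ± 0.16 in 8 control livers (log2 difference -7.94, SE 0.14, limma adjusted p = 7.1e-18). On the scanner's processed signals it was -4.80, that of *Fgb* -3.50 and that of *Proz* -5.47, while that of *F2* was -7.31, so the order among these genes depends on the signals used. The smallest difference among the 8 was that of *F7*, the partner of tissue factor, at 2.36 ± 0.17 in lung and 5.06 ± 0.24 in liver (log2 difference -2.70, SE 0.11, adjusted p = 4.1e-13).

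*Fgb* stood at 0.93 ± 0.59 in control lung and 6.55 ± 0.19 in control liver, a log2 difference of -5.61 (SE 0.19). Its lung values ran from 0.21 to 1.92, the largest SD among the 10 genes in control lungs. *Fga* was not well above background in any of the 6 control lungs but was so in all 8 livers, and its ratio differed by -6.20 (SE 0.10). *F2*, prothrombin, differed by -6.93 (SE 0.08), with lung values from -0.28 to 0.17 and liver values from 6.77 to 7.07.

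*Proz* differed by -7.32 (SE 0.10) between control lung and liver, from 0.84 ± 0.28 to 8.16 ± 0.14. Neither of its mRNA probes was well above background in any control lung, while both were in every control liver, and their ratios differed by -3.52 (SE 0.07) and -4.25 (SE 0.07). *F5*, the cofactor of factor X, differed by -4.81 (SE 0.09) and was well above background in 4 of 6 control lungs. *F10*, which lies next to *F7* and *Proz* on chromosome 8, differed by -3.07 (SE 0.07), from 2.05 ± 0.19 in lung to 5.13 ± 0.09 in liver.

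*F3*, tissue factor, was higher in lung by 1.81 (SE 0.16, adjusted p = 1.7e-08) on its brighter probe and by 1.54 (SE 0.09) on the other. These probes overlap by 20 bases on mm7 and their letters differ at 2 of them. *Plat* was higher in lung by 2.52 (SE 0.10, adjusted p = 8.3e-13), by 0.78 (SE 0.10) and by 0.22 (SE 0.08, adjusted p = 0.028) on its 3 probes. The third of these was well above background in 4 of 6 control lungs and in no liver, so that its ratio in liver is not a level. Values of the other 2 *Plat* probes did not overlap between the tissues, and neither did those of either *F3* probe. Of all probes, 21.6% had every control lung above every control liver.

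**Figure D1:**
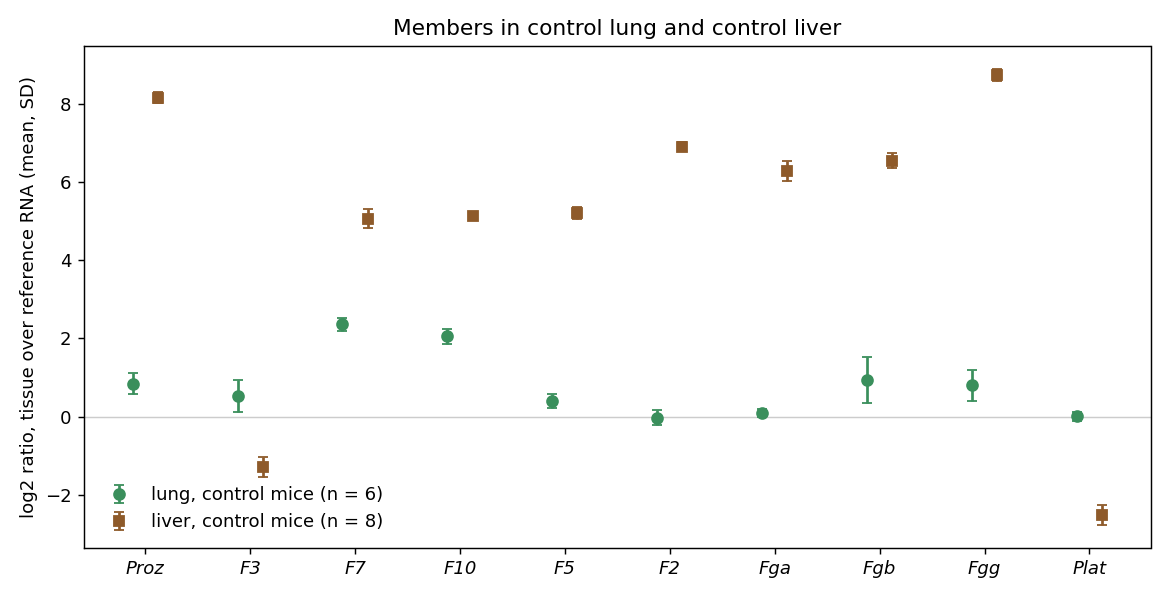
Log2 ratio of tissue over reference RNA for 1 probe of each of the 10 genes, as mean with SD, in control lung (6 mice, circles) and control liver (8 mice, squares). Only *F3* and *Plat* lie higher in lung, *F3* at 0.53 against -1.28 and *Plat* at 0.01 against -2.51. Ratios of different genes cannot be compared with each other.

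The Cy3 values, from the channel that held the same reference RNA on every array, were not level between the tissues for the liver-high genes. Each was rebuilt from the loess-normalized ratio and the mean log2 intensity of both channels, scaled to the same distribution over all arrays. Both steps enter the value, so it is not the measured reference signal alone. Log2 Cy3 was 11.20 in control liver and 6.13 in control lung for *Fgb*, 10.38 and 6.96 for *F10*, and 9.97 and 6.79 for *F2*, the largest gaps. It was 8.69 and 5.98 for *Fgg*, 7.89 and 5.86 for *Fga* and 7.27 and 6.13 for *Proz*. The gap was small for *F5*, at 6.28 and 5.95, and *F7* had 7.37 and 6.35. *Plat* had 10.51 and 10.64, and *F3* 9.17 and 8.94. A higher Cy3 lowers the ratio in liver, so the tissue differences of the liver-high genes are those of the ratio and not of the RNA alone. What raised Cy3 was not tested.

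In lung, the members differed in how many of the exposed mice stood apart from the controls. *Proz* was high in every exposed mouse. *Fgb*, *Fgg* and *F2* were high in 3 of the 7, the same mice each time, and *F7*, *F10*, *F5*, *F3* and *Plat* overlapped between the groups. Taking 1 probe for each gene, 9 of the 10 differences were above 0, with a median of 0.22 against 0.00 for all probes. These are the values the genes were chosen on, and no test is given. For scale, 0.219% of 41172 probes passed the same fit.

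*Proz* in the 7 exposed lungs was 2.56 in mouse 1, 2.07 in mouse 7, 1.67 in mouse 12, 2.14 in mouse 13, 1.69 in mouse 19, 2.28 in mouse 20 and 2.00 in mouse 23. In the 6 control lungs it was 0.66 in mouse 24, 0.93 in mouse 26, 0.61 in mouse 27, 0.55 in mouse 29, 1.17 in mouse 32 and 1.15 in mouse 34. Every exposed mouse lay above every control, which held for no other member and for 0.274% of all probes. The means were 2.06 ± 0.32 (SD, n = 7) and 0.84 ± 0.28 (SD, n = 6), a log2 difference of 1.22 (SE 0.15) or 2.32-fold. Within the 3 slides that held both groups it was 1.52, 1.09 and 0.76, and with slide as a block 1.13 (SE 0.14). In the rebuilt single-channel values Cy3 differed by -0.08 and Cy5 by 1.14.

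The other 2 *Proz* probes gave 0.10 (SE 0.05) and 0.17 (SE 0.05) in lung. Each was well above background in 4 of 7 exposed mice and in no control, so these small differences are near the floor of the measurement. Of the neighbours on chromosome 8, *F7* and *F10* are members and were not tested, and none of *Mcf2l*, *Pcid2*, *Cul4a* and *Lamp1* passed the test. *Pcid2*, downstream of *Proz*, differed by 0.02 (SE 0.05), and the 3 probes of *Cul4a* by 0.01 to 0.06. *Mcf2l*, upstream of *F7*, differed by 0.08 to 0.17 on 3 probes.

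**Figure D2:**
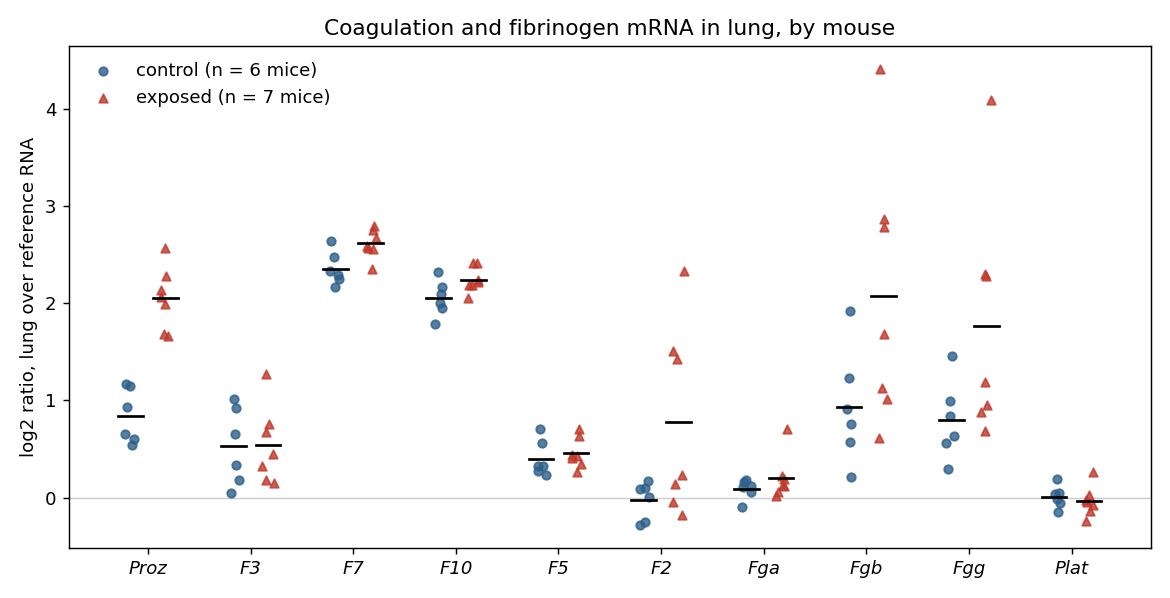
Log2 ratio of lung over reference RNA for each mouse, 1 probe a gene, in 6 control mice (circles) and 7 exposed mice (triangles), with black bars at the group means. The *Proz* groups do not overlap, and exposed mice 1, 13 and 19 lie far above all controls for *F2*, *Fgb* and *Fgg*. For *F2*, mouse 7 at 0.23 also lies above the highest control at 0.17.

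*F3*, which starts the pathway, did not separate the groups. It ran from 0.05 to 1.02 in control lungs and from 0.15 to 1.27 in exposed lungs, and the means differed by 0.02 (SE 0.19). *F7* ran from 2.17 to 2.64 in controls and from 2.36 to 2.80 in exposed mice, a difference of 0.26 (SE 0.08). *F10* ran from 1.78 to 2.32 and from 2.05 to 2.41, a difference of 0.19 (SE 0.08). For both, the groups overlapped, and within slides the difference was 0.51, 0.28 and -0.09 for *F7* and 0.45, 0.00 and -0.03 for *F10*. With the background model fitted on all spots both turned sign, to -0.38 and -0.32. *F5* differed by 0.06 (SE 0.09).

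*Plat* did not part from its controls on any of its probes. The differences were -0.04 (SE 0.07), -0.10 (SE 0.07) and -0.01 (SE 0.10).

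*Fgb*, the fibrinogen beta chain, was 4.41 in exposed mouse 1, 2.87 in mouse 13 and 2.78 in mouse 19. In the other 4 exposed mice it was 1.68, 0.61, 1.01 and 1.13 (mice 7, 12, 20 and 23), inside the control range of 0.21 to 1.92. The difference of the group means was 1.14 (SE 0.52). Within slides it was 1.63, 0.13 and 1.92.

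*Fgg* was highest in the same 3 mice, at 4.09 in mouse 1, 2.31 in mouse 13 and 2.28 in mouse 19, with the others from 0.69 to 1.19. Control lungs ran from 0.30 to 1.45, and the difference of means was 0.97 (SE 0.45). *F2* was 2.33, 1.51 and 1.43 in mice 1, 13 and 19, against -0.18 to 0.23 in the other exposed mice and -0.28 to 0.17 in controls. Its difference of means was 0.80 (SE 0.35). *Fga* was well above background in exposed mice 1 and 19 alone, at 0.70 and 0.19, and in no control lung.

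Without mice 1, 13 and 19, which were singled out after their values were seen, the lung differences were 0.17 (SE 0.29) for *Fgb*, 0.13 (SE 0.18) for *Fgg*, 0.07 (SE 0.11) for *F2* and -0.01 (SE 0.06) for *Fga*. That of *Proz* was 1.16 (SE 0.15) and that of *F7* 0.30 (SE 0.09). The fibrinogen and prothrombin differences rested on those 3 mice, while that of *Proz* was nearly as large without them. Those mice stood out by their high values of fibrinogen and prothrombin, so a fall of these differences without them was built in.

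Hepatocyte genes moved with fibrinogen from lung to lung. Over 19 hepatocyte genes that hold no clotting factor, the mean log2 ratio was 2.56 in mouse 1, 1.72 in mouse 13 and 1.84 in mouse 19, while the other 4 exposed mice and the 6 controls all lay below those 3, with a lowest value of 0.77 in the exposed and a lowest of 0.64 and a median of 0.93 in the controls. In mouse 1, 18 of the 19 genes stood above every control lung, in mice 13 and 19 each 16 of 19, and in the other 4 exposed mice 5, 0, 1 and 6 (mice 7, 12, 20 and 23). Of the hepatocyte enzymes and secreted proteins, *Cps1*, an enzyme of the urea cycle, was well above background in mice 1, 13 and 19, at 1.48, 0.57 and 0.81, and in no other lung. *Apoa2*, an apolipoprotein, was 3.04, 1.34 and 1.72 in those mice and at most 0.53 in any other lung. *Alb*, serum albumin, was 4.03, 3.50 and 3.38 in those mice and 0.84 to 2.74 elsewhere, and *Ahsg*, a fetuin, 4.05, 3.49 and 3.38 against 1.24 to 2.59. The part of hepatocyte RNA in the fibrinogen and prothrombin values was not tested.

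Of the genes outside the 10, those whose lung pattern was most like the mean of the fibrinogen chains included *Gc*, *Slco1b2*, *Apoh*, *Serpinc1*, *Hpx*, *Mug1*, *Ces1c*, *Ambp* and *Cyp2d26*, with Pearson r from 0.98 to 0.99 over 13 lung arrays. The genes most like *F2* were *Cyp2d26*, *Kng1* and *Mbl2* (r 0.98 each). These were picked as the highest of 24870 probes and are given without a p. Each r runs over exposed and control lungs together, so it includes the group difference the members were chosen on.

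For *Proz* the list held other genes, and any gene raised in all exposed lungs would give a high r with it. The 3 genes most similar to *Proz* were *Vnn1*, a pantetheinase (r 0.97), *St5* (r 0.95) and *Noxo1*, a subunit of an NADPH oxidase (r 0.95). Those of *F10* were *Ctsz*, a lysosomal protease, *Podxl* and *Mtch1* (r 0.90 to 0.91), and those of *F7* were *Trip6*, *Cacna1d* and *Kat5* (r 0.87 to 0.89). Those of *F3* were *Stxbp5*, *Mustn1* and *Itgb1bp2* (r 0.91 each), those of *F5* were *Tcp11l2*, *Blk* and *Gypc* (r 0.90 to 0.93), and those of *Plat* were *Dcaf8*, *Lamc3* and *Slc20a2* (r 0.84 to 0.92).

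**Figure D3:**
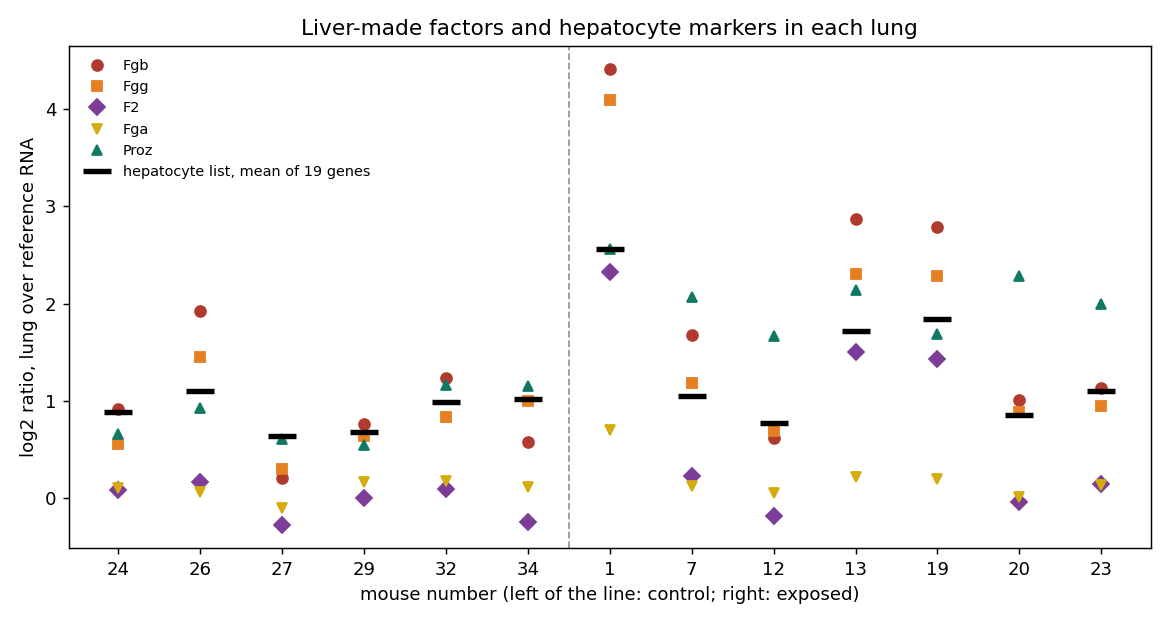
Log2 ratio of lung over reference RNA in each of the 13 lungs, controls left and exposed mice right of the dashed line, for 5 members, with a black bar for the mean of 19 hepatocyte genes. *Fgb*, *Fgg*, *F2* and the hepatocyte mean are highest in exposed mice 1, 13 and 19, while *Proz* is above every control in all 7 exposed mice.

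Markers of other cell types were followed in the same lungs. The mean over 8 macrophage genes was 1.52 ± 0.07 in exposed and 1.29 ± 0.09 in control lung, and 2 of the 8 passed the test, both higher, the scavenger receptors *Marco* (0.57, adjusted p = 0.0093) and *Msr1* (0.52, adjusted p = 0.019), named after their values were seen. The mean over 10 platelet genes was 0.80 ± 0.12 in exposed and 1.02 ± 0.20 in control lung, and over 9 endothelial genes 4.34 ± 0.16 and 4.37 ± 0.06. The mean over 6 heart muscle genes was 3.23 ± 0.52 and 2.83 ± 0.94, over 9 neutrophil genes 1.94 ± 0.36 and 2.08 ± 0.35, over 4 red blood cell genes 3.65 ± 0.22 and 3.84 ± 0.16, and over 8 fibroblast and smooth muscle genes 0.37 ± 0.12 and 0.34 ± 0.10. All 6 heart muscle genes were above 0 in the difference, and 0 of the 4 red blood cell genes and 2 of the 9 neutrophil genes. Outside the macrophage list no gene of these lists passed the test. Their part in the members' values was not tested.

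In liver, no member passed the test between exposed and control mice, nor did any of the 41174 probes (limma, 0 at adjusted p under 0.05, 1065 or 2.59% at unadjusted p under 0.05). This is a background of 0%. The differences were small, and 9 of the 10 were below 0, with a median of -0.17 against -0.00 for all probes. At unadjusted p under 0.05 stood 5 members, all lower in exposed mice, where 1.71% of all probes stood lower at that level. Their adjusted p was 1 each.

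*Fgb* differed most in liver, at 6.17 ± 0.22 in 7 exposed and 6.55 ± 0.19 in 8 control mice. The log2 difference was -0.38 (95% interval -0.58 to -0.18, limma adjusted p = 1, exact two-sided permutation p = 0.0047 over 6435 splits). The 7 exposed livers gave a lowest value of 5.85, a median of 6.16 and a highest of 6.43, and the 8 control livers 6.31, 6.61 and 6.79, so that the groups overlapped. *Fgg* differed by -0.25 (interval -0.42 to -0.08, exact permutation p = 0.012) and *F2* by -0.20 (interval -0.32 to -0.08, exact permutation p = 0.0057). *Proz* differed by -0.21 (interval -0.33 to -0.09, exact permutation p = 0.0045), with 7.84, 7.97 and 8.04 as lowest, median and highest in exposed livers and 7.99, 8.18 and 8.35 in controls. *F10* differed by -0.14 (interval -0.26 to -0.01, exact permutation p = 0.027), and none of these permutation p-values is adjusted for the 10 genes. No member had all exposed livers below all controls, against 0.00971% of all probes.

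The direction was not the same on every scale. With the background model fitted on all spots, *Proz*, *Fga* and *Fgg* in liver stood at 0.46, 0.30 and 0.07, *F5* and *F7* at 0.94 and 0.57, and *F3* at -0.26. With arrays centred on their medians instead of loess, *F2* and *F10* stood at 0.02 and 0.08, and *F5*, *F7* and *Plat* at 0.09, 0.06 and 0.11. The rebuilt Cy3 values, which carry the normalization, were higher in exposed than control livers by 0.26 for *Fgb*, 0.27 for *Fga* and 0.13 for *Fgg*. Cy5 differed by -0.12, 0.02 and -0.12 for these genes. For *F2* the rebuilt Cy5 differed by -0.22 and Cy3 by -0.02. The mRNA probes of *Proz* differed by -0.00 and -0.05 in liver. The hepatocyte list was lower as well, at 6.50 ± 0.07 in exposed and 6.74 ± 0.14 in control livers. Of its 19 genes 0 passed the test, and 15 were lower at an unadjusted p under 0.05, against 1.71% of all probes.

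*Fga* differed by -0.26 (interval -0.52 to 0.01), *F7* by -0.09 (interval -0.30 to 0.12) and *F5* by -0.04 (interval -0.19 to 0.12). *F3* and *Plat*, whose liver levels are low, differed by 0.02 (interval -0.20 to 0.24) and -0.02 (interval -0.26 to 0.21). The intervals do not show that the groups are equal.

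**Figure D4:**
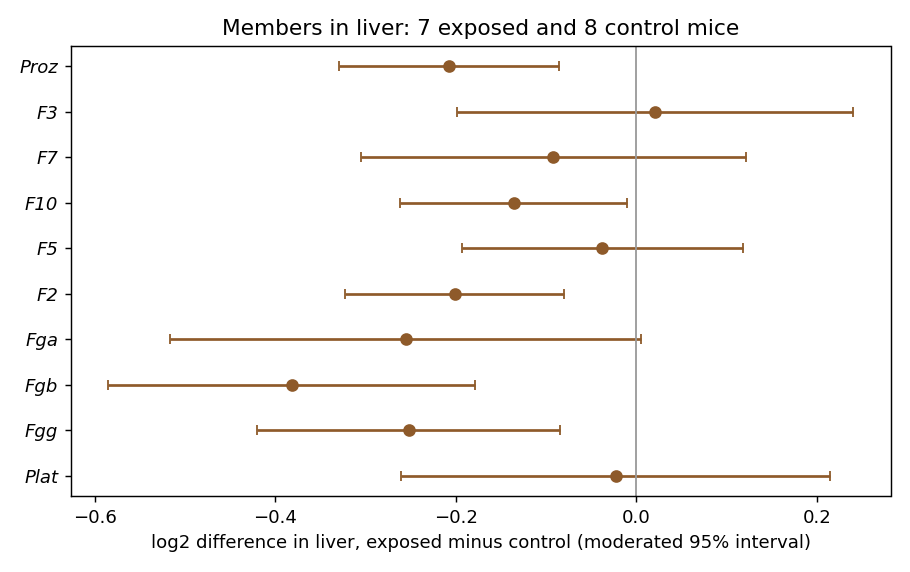
Log2 difference in liver between 7 exposed and 8 control mice for 1 probe of each of the 10 genes, with moderated 95% intervals. The intervals of *Proz*, *F10*, *F2*, *Fgb* and *Fgg* lie below 0, with *Fgb* lowest at -0.38, and none passed after adjustment over all probes.

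The mice with high lung fibrinogen had liver *Fgb* near that of the other exposed mice, with mouse 1 highest. Liver *Fgb* was 6.43 in mouse 1, 6.16 in mouse 13 and 6.34 in mouse 19, and 5.98, 6.06 and 6.34 in mice 12, 20 and 23. The log2 difference of lung minus liver *Fgb* within a mouse was -2.02 in mouse 1, -3.29 in mouse 13 and -3.56 in mouse 19, against -5.36 to -5.05 in mice 12, 20 and 23. Liver *Proz* in the same mice ran from 7.84 to 8.04. These values pair the tissues by mouse number. The microRNA labels of the series give the numbers 12, 20 and 23 to control lungs.

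The wider clotting and fibrinolysis system was followed through 41 further genes in 7 lists. In lung none passed the test between exposed and control mice (limma, lowest adjusted p = 0.098), 5 stood at an unadjusted p under 0.05 (7.06% of all probes did), and the median difference was 0.04. The lowest p was that of *Serpind1*, heparin cofactor II, a thrombin inhibitor, at 1.84 in exposed and 1.29 in control lung (log2 difference 0.55, SE 0.12). Every exposed mouse lay above every control for *Serpind1*, as for 0.274% of all probes. It was picked as the lowest p of the 41 genes, whose lists were chosen with earlier results of these data known. With slide as a fixed or random block it passed, at 0.67 (SE 0.11, adjusted p = 0.024) and 0.59 (SE 0.11, adjusted p = 0.042). Other inhibitors that hepatocytes secrete were *Serpinc1*, antithrombin, at 0.76 (adjusted p = 0.74) and *Proc*, protein C, at 0.45 (adjusted p = 0.75). The endothelial inhibitors *Thbd*, thrombomodulin, and *Tfpi*, tissue factor pathway inhibitor, differed by -0.08 and -0.00.

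Among the contact factors *Kng1*, kininogen, differed by 0.75 (adjusted p = 0.7) and *F12* by 0.27, and the 6 genes of that list were all above 0. In the fibrinolysis list, *Serpinf2*, the plasmin inhibitor, differed by 0.50 (adjusted p = 0.68), *Plg*, plasminogen, by 0.40 and *S100a10*, a plasminogen receptor subunit, by -0.12. Of the carriers and stabilisers, *F13a1* differed by 0.26 and *Vwf*, von Willebrand factor, by -0.07. *Ggcx*, the carboxylase that protein Z and factors II, VII and X need, differed by 0.14 and *Vkorc1*, which renews vitamin K, by -0.08.

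Without mice 1, 13 and 19, *Serpinc1* differed by -0.05 (SE 0.11), *Kng1* by 0.04 (SE 0.11), *Serpinf2* by 0.08 (SE 0.06), *Plg* by -0.07 (SE 0.07) and *Proc* by -0.04 (SE 0.17). *Serpind1* differed by 0.46 (SE 0.10).

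In liver 0 of the 41 genes passed (limma, 6 at unadjusted p under 0.05, all lower in exposed mice). Of all probes, 1.71% stood lower at that level. *Kng1* differed by -0.32, *Serpinc1* by -0.30, *Proc* by -0.26, *Serpinf2* by -0.24, *F12* by -0.18 and *Serpind1* by -0.17, each with adjusted p = 1. Between control lung and control liver 37 of the 41 passed, 22 lower and 15 higher in lung, where 58.1% of all probes passed, 28.6% lower and 29.5% higher. *Serpinc1* was lower by 8.16 and *Kng1* by 6.90 on the log2 scale, and *Thbd* was higher by 6.28, *Vwf* by 3.27 and *F13a1* by 2.88. The contact factors were all lower in lung, 6 of 6.

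**Figure D5:**
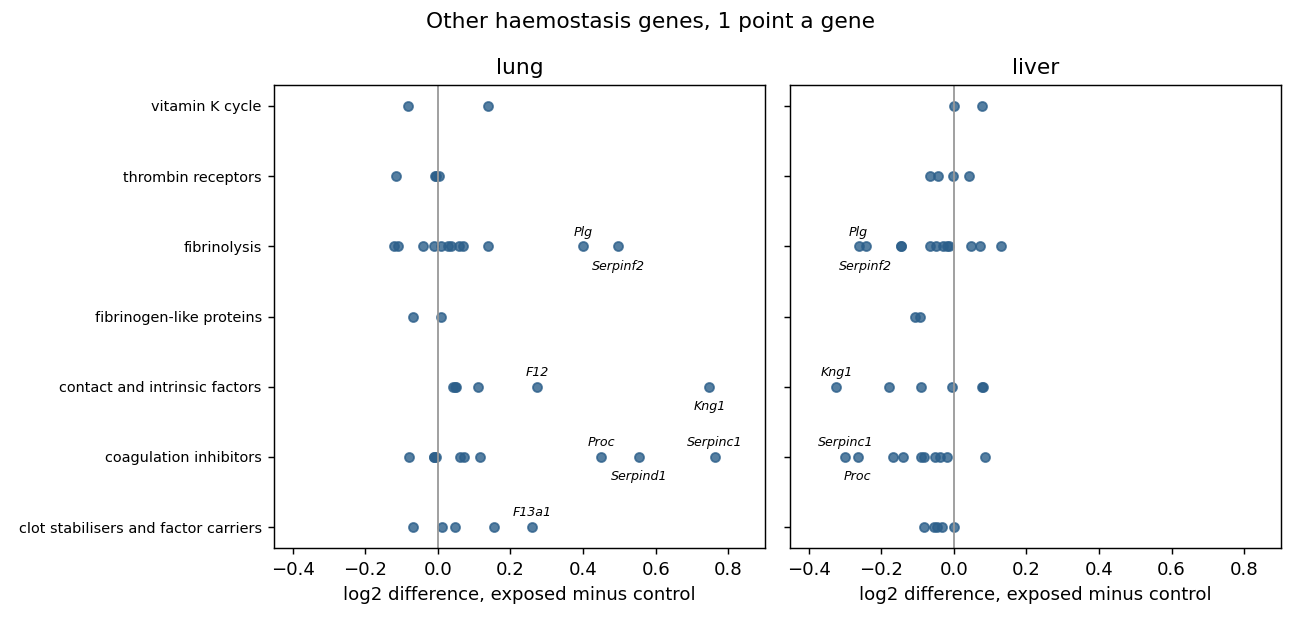
Log2 difference between exposed and control mice for 41 further haemostasis genes, 1 point a gene and 1 row a list, in lung (left) and liver (right). Genes named lie over 0.23 from 0, and in lung *Serpinc1* and *Kng1* reach 0.76 and 0.75 while in liver they lie at -0.30 and -0.32.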

How the data were processed

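The authors deposited 1 scanner file for each array, with spot and background intensities from Agilent Feature Extraction (9.5.3.1 for lung, 10.1.1.1 for liver), and a table of log2 ratios after LOWESS. Cy5 held the RNA of 1 mouse and Cy3 the reference. From the deposited median intensities, background was corrected by normexp (offset 50, the model fitted without spots marked by the scanner software), ratios were normalized by loess within each array (span 0.3, 4 iterations) and spots of a probe were averaged, in R 4.3.3 with limma 3.58.1. Spots with their own feature flags were left out of the values, a choice made after seeing the data. The signals kept give ratios for 41174 probes. Values of single channels were rebuilt from the loess-normalized ratios and the mean log2 intensities, after Aquantile scaling between all arrays. Comparisons used lmFit and eBayes, with Benjamini-Hochberg adjustment over all probes and a threshold of 0.05. For single genes, exact two-sided permutation tests over samples were added in liver.

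The members and lists were chosen with earlier results of these data known. The probe of a gene is that with the highest mean signal. Named are all members, list genes called in a comparison or the 3 largest differences of a list, 4 hepatocyte genes, and the genes of highest Pearson r, of which some are not reported here. A probe counts as well above background by the scanner's own flag. The number of arrays limits the precision, since arrays give no counts. The microRNA arrays were not used here. The paper took liver from the same mice, and lung and liver arrays with the same mouse number were taken here as the same animal. Some numbers that label exposed mice on the mRNA arrays label control lungs on the microRNA arrays. The correlation of their deviations ran from -0.09 to 0.25, which does not settle the pairing. The fits were tested on simulated data. Alternatives changed the background, signals, normalization, filter, probe choice, slide or mouse block and the arrays included.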

Additional observations from a re-analysis of the deposited data

Results flagged for a closer look

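Among 60 sets of values, 1 for each probe and group, 2 held a sample far from the others. That is no more than the rate of about 1 in 20 that chance gives. *Fga* in exposed lung was 0.70 in mouse 1, and the nearest of the other 6 mice was at 0.22. The *Proz* mRNA probe A_52_P203398 in exposed liver was 3.92 in mouse 19, and the nearest other was at 3.66. The downstream *Proz* probe was higher in exposed than control lung and lower in exposed than control liver, and the lung difference exceeded the liver difference by 1.42 on the log2 scale. That difference between tissues was not tested, because the lung values chose the gene.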

How the results depend on the processing

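In lung, 90 probes passed over the whole array. With the background model fitted on all spots 17 passed, with arrays centred on their medians 6, with slide as a random block 136, and without exposed mice 1, 13 and 19, a setting added after seeing the data, 39. The all-spots model gave far lower background means in some exposed lungs and some control livers, as given above. The other settings gave 66 to 99, and leaving out 1 array gave 71 to 94. Of the 41 list genes 0 passed in lung, and 1, *Serpind1*, with slide as a fixed or a random block. The lung difference of *Proz* stayed above 0, at 0.58 with the background model on all spots, 1.99 on the scanner's processed signals and 0.50 as the mean of its 3 probes, against 1.22. In liver no probe, list gene or member passed under any setting run, and leaving out 1 array gave 0. Between control lung and liver, with the mouse as a fixed replicate block 22751 probes, 34 list genes and 10 members passed, and as a random block 24159, 37 and 10, so that the pairing ended no member's call. Leaving out 1 array gave 22977 to 23980 probes, 35 to 37 list genes and 10 members. Causes were not tested. Probes near background limit the lung values of *Fga*, *F5* and the *Proz* mRNA probes.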
